A study of Mus musculus with 2 samples.

Results

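Heparan sulfate genes were followed across a pair of microarrays of mouse embryoid bodies. Embryoid bodies are clusters of embryonic stem cells that start to differentiate in suspension. The genes were taken from a list of 38 that make, sulfate or trim heparan sulfate chains or encode the proteins that carry them. A gene was measured by the array's probe sets whose annotation names that gene alone, which gave 81 probe sets for 36 of the 38 genes, among 18193 genes named in this way on the array. Xylt1 and Ndst1 were not analysed here. The embryoid bodies were formed in hanging drops from CGR8, a mouse embryonic stem cell line of strain 129, grown without feeder cells and with leukemia inhibitory factor. The control group was 1 array of embryoid bodies in differentiation medium with no added agent. The FGF10 group was 1 array of embryoid bodies in the same medium with recombinant FGF10, a secreted fibroblast growth factor, at 100 ng/ml. The labels date both samples to day 2, whereas by the design text FGF10 was added at 2 days and RNA followed 24 h later, and the sources used here do not settle which holds. Both groups come from 1 stem cell line, and how many embryoid bodies entered each sample is not given in the sources used here.

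Heparan sulfate is a long sugar chain attached to core proteins at the cell surface and in the matrix. Its assembly in the Golgi starts with a short linker sugar on a serine of the core protein, goes on with elongation of the chain, and ends with sulfation at several positions, which makes the binding sites for growth factors. Fibroblast growth factors bind their receptors together with heparan sulfate, and mouse embryonic stem cells that lack the chain leave the pluripotent state poorly. Glypicans are held on the membrane by a lipid anchor, syndecans span the membrane, and perlecan and agrin lie in basement membranes.

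Each value was a MAS5 signal, a linear brightness per probe set. A ratio is the log2 of FGF10 over control, centred on the median of kept probe sets, and a gene is read from its brightest kept probe set. A probe set was kept where the mean of its signals on both arrays was at least 76.35, the median over all probe sets. With 1 array per group there was no test and no p-value, and a ratio describes these arrays only. Differences were therefore counted at a fixed size of 1.5-fold. As a measure of error within the arrays, the technical SD was taken from how far the ratios of a gene's 2 brightest kept probe sets lay apart. It was 0.27 on the log2 scale over 5213 genes, 0.37 in the dimmest of 5 signal groups and 0.18 in the brightest. It does not cover variation between cultures. In samples of whole embryoid bodies, fewer cells of a type and less RNA per cell cannot be told apart.

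Pluripotency genes were bright on both arrays, as the label of early embryoid bodies implies. Pou5f1 had signals of 8157.8 in control and 8787.2 with FGF10, and 4 of 8 pluripotency markers were at least 1.5-fold lower with FGF10. All 10 primitive streak markers listed passed 1.5-fold upward, with summed signals of 3735.4 in control and 17276.5 with FGF10. Of all genes, 5.41% were that much higher and 4.86% that much lower. The marker lists were chosen with earlier results of these data known. The count therefore does not show how streak genes off the list behaved. The part of a difference in cell state in the ratios below was not tested. Of 8 fibroblast markers, which feeder cells would bring, 6 lay below the filter. The 2 that passed were Thy1, with 369.4 in control and 248.3 with FGF10 (a log2 ratio of -0.61), and Col1a2, with 136.8 and 120.5 (-0.22). Among 6 endothelium markers 4 lay below the filter, and Tek (-0.77) and Eng (-0.70) were at least 1.5-fold lower with FGF10. Tek, with 107.3 in control and 64.5 with FGF10, passed the filter only through the array where it was higher. With its FGF10 signal raised to the filter, the log2 ratio of Tek was -0.53, under 1.5-fold.

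Most heparan sulfate genes had nearly equal signals on both arrays. Of the 36 genes with a probe set, 28 passed the filter (77.8%) and 8 did not, while 61.1% of all named genes passed. Of the 28, 2 were higher with FGF10 by at least 1.5-fold and 0 were lower by as much, against 5.41% of all 11122 genes measured that were higher and 4.86% that were lower. The 2 higher genes were the glypicans Gpc6 and Gpc2, and they make up 7.14% of the 28, which is close to the background. No member reached 2-fold, where the background was 1.32% higher and 1.29% lower. At a smaller size, a log2 ratio of 0.32, 7 of the 28 were higher and 1 was lower, against 14.7% and 16.6% of all genes. The median log2 ratio of the 28 was 0.074, and that of all genes was -0.027. The median size of the ratio, without its sign, was 0.18 for the 28 and 0.21 for all genes.

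**Figure D1:**
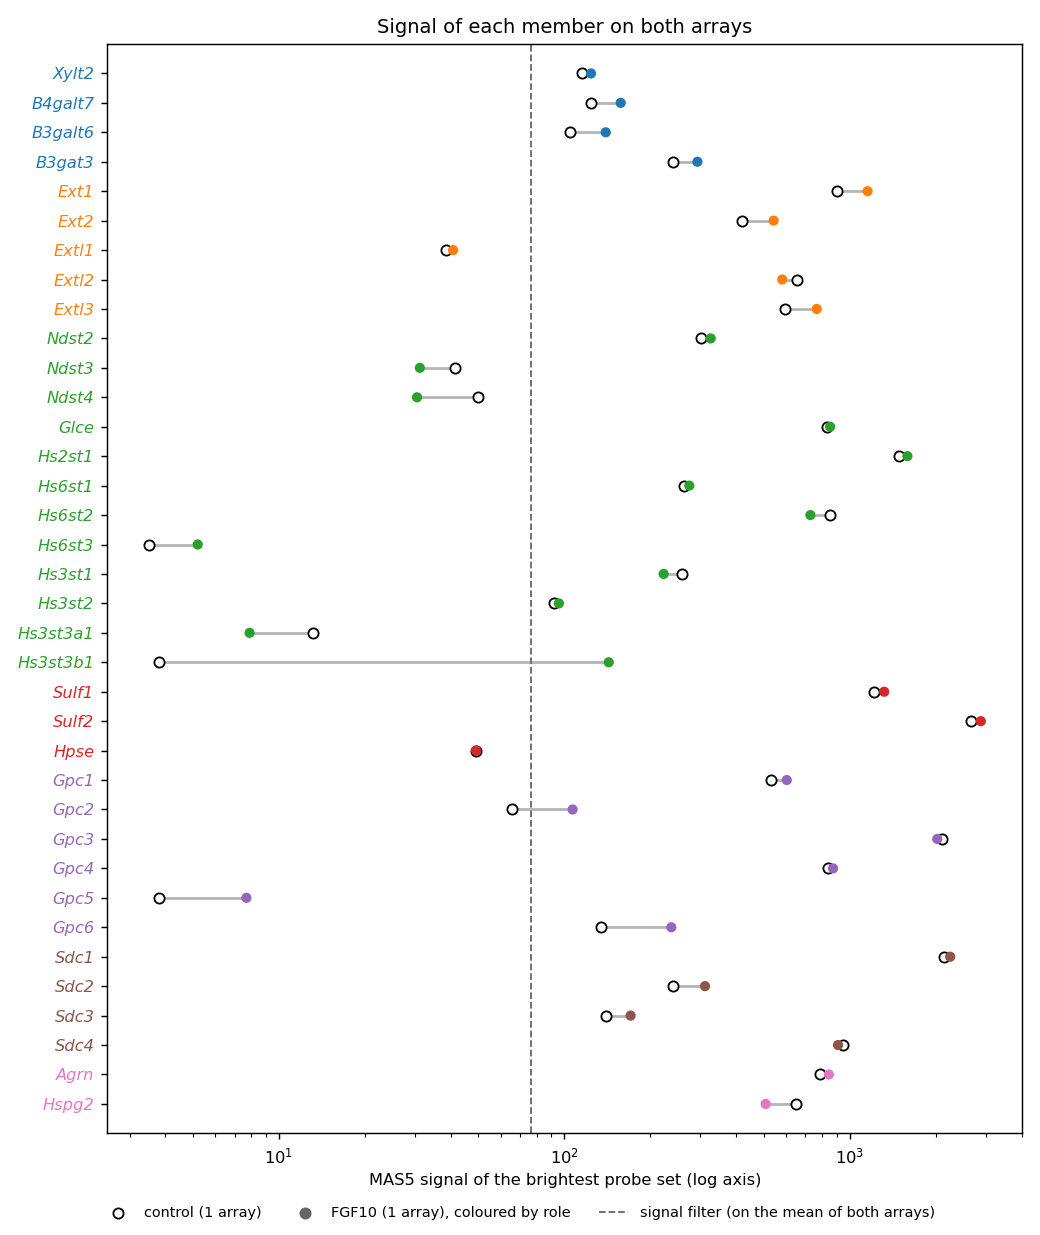
MAS5 signal of the brightest probe set of each of the 36 genes on the control array (open circles) and on the FGF10 array (filled circles, coloured by role), on a log axis. Distances within a line can be read as ratios, while levels of different genes cannot be compared. Most pairs of circles nearly touch, Gpc2 and Gpc6 are the widest pairs among the 28 genes that passed the filter (dashed line at 76.35), and Hs3st3b1, which did not pass, is the longest line.

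Small positive ratios were more frequent among these genes than among genes at large. A log2 ratio above 0 was found for 21 of the 28 (75%) and for 46.5% of all genes. Of the 21, 15 had a ratio within the technical SD of their signal group, so the count is a description. It depended little on scaling, with 22 genes above 0 without centring, 20 after quantile normalization and 19 after loess normalization. Of all genes, 50.9%, 47% and 47.2% were above 0 under those scalings. The choice of probe set also mattered. With the mean over kept probe sets, Hs2st1 (-0.068), Sdc1 (-0.10) and Sdc2 (-0.053) fell below 0, while the genes already below 0 stayed there. Only 1 of the 28 (3.57%), Gpc6, had a ratio beyond 2 technical SDs of its signal group, against 10.6% of all genes.

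**Figure D2:**
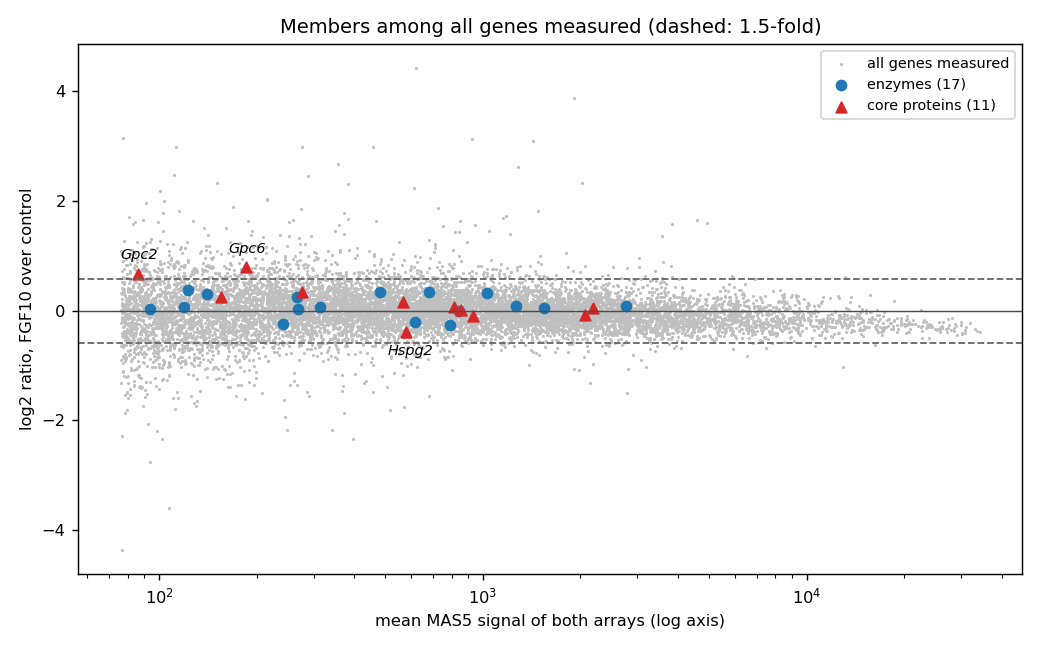
Log2 ratio of FGF10 over control against mean MAS5 signal (log axis) for all 11122 genes measured (grey), the 17 enzymes (blue circles) and the 11 core proteins (red triangles), with dashed lines at 1.5-fold. The members lie in the middle of the cloud, with Gpc2 and Gpc6 above the upper line and Hspg2 lowest at -0.39.

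The linker enzymes build the short sugar on which a chain starts. All 4 measured had ratios above 0, from 0.073 to 0.38, with a median of 0.28, and none reached 1.5-fold. Xylt2, a xylosyltransferase that adds the first sugar, had signals of 115.2 in control and 124.1 with FGF10 (a log2 ratio of 0.073). B4galt7, which adds the first galactose, went from 124 to 157.7 (0.31). These enzymes act in sequence, and the next in order had the largest ratio among the 17 enzymes that passed the filter. B3galt6, which adds another galactose, had 104.9 and 139.8 (0.38). B3gat3, which closes the linker with glucuronic acid, had 239.9 and 292.8 (0.25). The 4 genes stayed above 0 under every scaling tried, but each was read from 1 kept probe set. The technical SD at their brightness is 0.37, and none of them exceeds 2 technical SDs. With probe sets whose names end in _x_at or _s_at left out, B4galt7 had no value. Fam20b, the kinase that phosphorylates the linker xylose, was at 0.18 and the phosphatase gene Pxylp1 at 0.31, both within 1.5-fold.

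Chain elongation showed a like pattern with 1 exception. Ext1 and Ext2 encode the subunits of the polymerase that lengthens the chain. Ext1 had signals of 901 in control and 1155.7 with FGF10, a log2 ratio of 0.32. Ext2 had 417.9 and 541.5, a ratio of 0.34. Extl3, which adds the first N-acetylglucosamine and so commits the linker to heparan sulfate, had 593.4 and 766.6. Its ratios on its kept probe sets, 0.34 and 0.35, were close to each other. Extl2, a related transferase that can cap a linker and end its growth, was the exception. It was lower with FGF10, at 654.9 in control and 580.5 with FGF10 (-0.21), with -0.28 on its other probe set. Ext1, Ext2 and Extl3 kept their direction in all settings tried, as Extl2 kept its own. Ext1 and Ext2 were each read from 1 kept probe set, so the choice of probe set could not change them. Below the filter, Ext2 had probe sets at 42.7 in control and 18.2 with FGF10, and at 29 and 7, in the opposite direction. Ext1 had 15.6 and 26.3 on its probe set below the filter. At the brightness of these genes the technical SD is 0.23 to 0.30. Extl1, a further family member, had signals of 38.4 and 40.8, below the filter.

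Sulfation and epimerisation turn the plain chain into one that binds growth factors, and the genes of that step had a median log2 ratio of 0.024 over 7 measured, with 4 above 0. Ndst2, which replaces acetyl groups with sulfate and so starts the sulfated stretches, had 302.4 in control and 326 with FGF10 (0.074). Glce, the epimerase that turns glucuronic into iduronic acid, was the closest to equal of the list, at 834.4 and 854.1 before centring (-0.00063 after it). Hs2st1, which sulfates that iduronic acid, had 1493.8 and 1593.4 on its brightest probe set (0.059), while its other 3 kept probe sets were between -0.15 and -0.062. The probe sets of Hs2st1 thus lay on both sides of 0 and close to it.

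The 6-O-sulfotransferases add the sulfate that FGF receptor complexes need. Hs6st1 had signals of 263.4 in control and 274.2 with FGF10 (0.024). Hs6st2 had 855.5 and 728.6 (-0.27), but its second probe set, at 148.6 and 173.1, gave 0.19. The direction for Hs6st2 is therefore not settled by these probe sets. Among the 3-O-sulfotransferases, which add the rarest modification, Hs3st1 was at 258.1 and 223 (-0.25) and Hs3st2 at dim signals of 91.9 and 95.8 (0.026). Under quantile and loess normalization the median of this group turned to -0.027 and -0.023, so it has no stable direction.

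Some sulfotransferase genes were not measurable. Ndst3, Ndst4, Hs6st3, Hs3st3a1 and Hs3st3b1 lay below the filter. For Ndst3 the brightest probe set had 41.3 in control and 31.2 with FGF10, and for Ndst4 it had 49.7 and 30.5. Hs6st3 was at 3.5 and 5.2, and Hs3st3a1 at 13.2 and 7.9. These isoforms are dim on both arrays, and their ratios have no reliable size or sign. Hs3st3b1 fell just outside the filter, with a mean of 73.5, because a control signal of 3.8 was averaged with an FGF10 signal of 143.2. Its second probe set had 76.7 and 63.6, in the opposite direction, and the remaining probe sets were under 76.35 on both arrays. With signals under 76.35 raised to that value, the brightest probe set gave a log2 ratio of 0.87. The members just inside the filter were Gpc2, with a mean signal of 86.2, and Hs3st2, with 93.85.

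After synthesis, chains are trimmed outside the cell. Sulf1 and Sulf2 encode sulfatases that remove 6-O-sulfates and so tune the binding of growth factors. Sulf1 had signals of 1212.4 in control and 1321.1 with FGF10 (0.090), and a nearly equally bright probe set had 1053.6 and 1423.4 (0.40). Sulf2 had 2660.2 and 2880.9 (0.081), with 0.13 and 0.24 on its other probe sets. All 5 kept probe sets of the sulfatases were above 0 and within 1.5-fold. Hpse, the heparanase that cuts the chain, had 48.9 and 49.1, below the filter.

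The glypicans held the only members past 1.5-fold. Gpc6 had a signal of 134 in control and 237.2 with FGF10, a log2 ratio of 0.79 (1.73-fold). Its other kept probe sets had 140.8 and 166.1 (0.20), 76.6 and 105.8 (0.43), and 78.4 and 99 (0.30). All 4 were thus higher with FGF10, but only the brightest passed 1.5-fold, and their mean was 0.43. Gpc2, known in mouse from developing neurons, had 65.4 in control and 107 with FGF10 on its 1 kept probe set, a ratio of 0.68 (1.60-fold). It was the 1 member that passed the filter only through the array where it was higher. With the control signal raised to 76.35 its ratio was 0.45, under 1.5-fold. A probe set annotated to both Gpc2 and Gal3st4 had 84.1 and 96.7 (0.17), which cannot be assigned to either gene.

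The other glypicans were close to equal. Gpc3, which restrains hedgehog and growth signals in the embryo, had 2099.2 in control and 2026.6 with FGF10 (-0.085). Gpc4, which marks stem cells and heart progenitors in mouse, had 840.5 and 874.5 (0.023), with 0.14 on its second probe set. Gpc3 and Gpc4 are neighbours on the X chromosome with 0 protein-coding genes between them in assembly GRCm38.p6, and neither differed by more than the technical SD. Gpc1 had 528.2 and 602.1 (0.15). Gpc5 and Gpc6 are likewise neighbours, on chromosome 14, yet Gpc5 had signals of only 3.8 and 7.7, below the filter, while Gpc6 was among the higher genes.

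Syndecans showed no steady direction, because probe sets of the same gene disagreed. Sdc1, the epithelial syndecan, had 2132.7 in control and 2249.9 with FGF10 (0.043), while its other 3 probe sets were between -0.30 and -0.058. Sdc2, a syndecan of mesenchymal cells, had 240.8 and 311.3 (0.34), then 0.095 on its second probe set and -0.59 on the next, at 196.1 and 133.3. That last one was the only kept one of all members past 1.5-fold downward. Sdc3 had 140.2 and 170.8 (0.25) and -0.22 on its second probe set. Sdc4, which sits in focal adhesions, was lower on both, with 948.4 and 910.3 (-0.093) on one and -0.41 on the other. Over all members with at least 2 kept probe sets, 9 of 14 had 1 sign on all of them. On the 2 brightest alone, 10 of 14 agreed in sign (71.4%), against 65.7% of all genes with 2 kept probe sets.

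**Figure D3:**
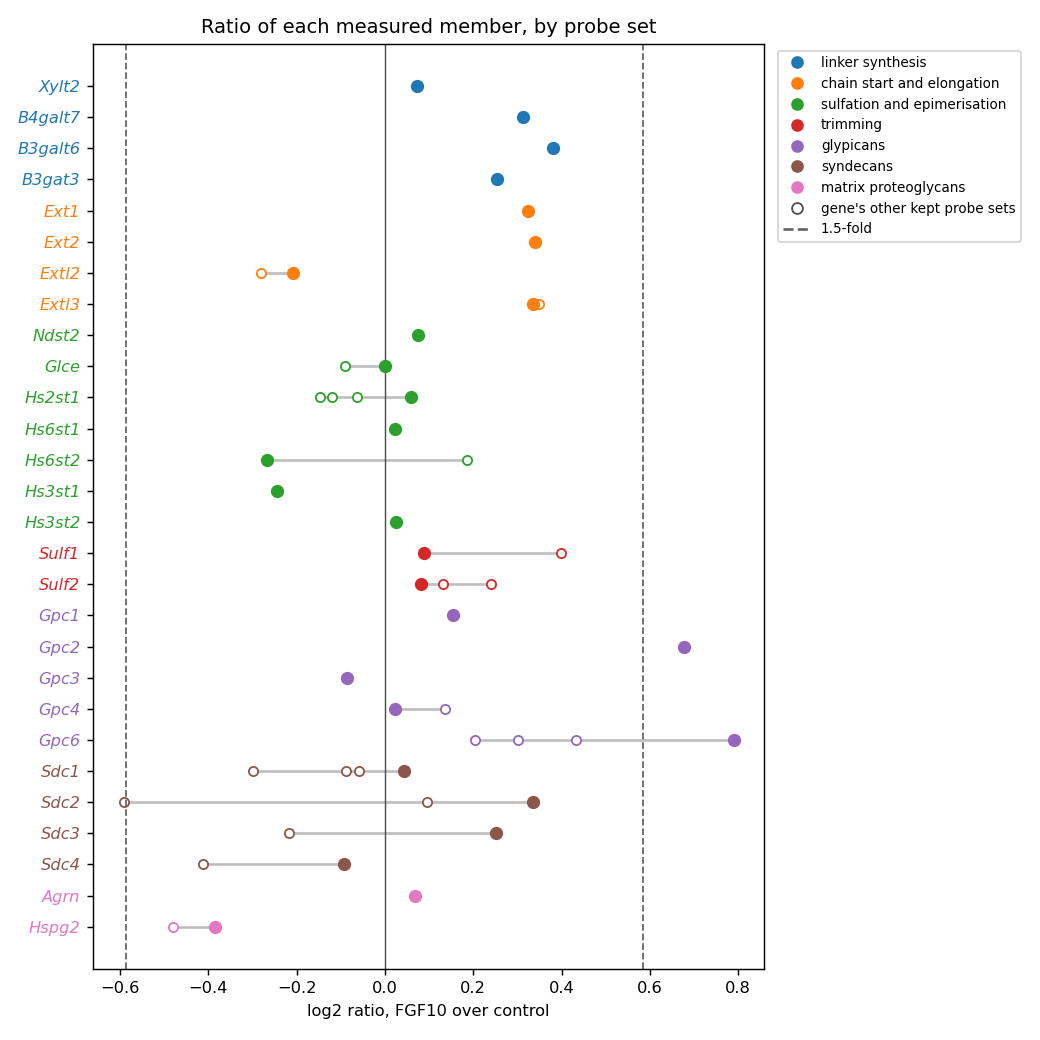
Log2 ratio of FGF10 over control for each of the 28 measured members, with filled circles for the brightest probe set, open circles for the gene's other kept probe sets and dashed lines at 1.5-fold. Linker and elongation genes lie to the right of 0 apart from Extl2, the probe sets of Sdc1, Sdc2, Sdc3, Hs2st1 and Hs6st2 straddle 0, and both probe sets of Hspg2 lie to the left.

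The matrix proteoglycans differed from each other. Hspg2, which encodes perlecan, a large proteoglycan of basement membranes, had 647.7 in control and 507.8 with FGF10, a log2 ratio of -0.39 (1.31-fold lower). Its second probe set had 158.9 and 116.7 (-0.48). It was the lowest of the 28 measured members and stayed between -0.48 and -0.35 in all settings, short of 1.5-fold. Agrn, which encodes agrin, had 787.2 and 845.3 (0.068). Col18a1, a collagen of basement membranes that also carries heparan sulfate and is not among the 38, had 2014.3 and 1400.5 (-0.56), with -0.50 on its second probe set. It was chosen for mention after its values were seen.

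Embryoid bodies form a basement membrane under an outer layer of extraembryonic endoderm, so the markers of that layer are given beside Hspg2. Of 10 markers of primitive and visceral endoderm, 5 were at least 1.5-fold lower with FGF10 (Dab2, Apoa1, Ttr, Hnf4a and Cubn) and 2 were higher (Gata6 and Sox17). Of all genes, 4.86% were that much lower and 5.41% that much higher. The summed signal of the 10 was 12128.9 in control and 8944.7 with FGF10. Of 8 markers of parietal endoderm, which lays down a thick basement membrane, 0 passed 1.5-fold in either direction and 6 were below 0, with a median of -0.15 and summed signals of 18677.5 and 17370. None of these 18 markers lay below the filter. Their part in the ratio of Hspg2 was not tested.

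Promoters are printed for 4 members from different steps of the pathway, to show what kinds of start site they have. They are Gpc2 of the higher glypicans, the linker and polymerase genes B4galt7 and Ext2, and Hspg2, the lowest. The windows of 300 bases, with 250 before the annotated start and 50 after it, are from RefSeq on assembly GRCm38.p6 and are written 5′ to 3′ on the gene's strand. Gpc2 is at chr5:138279888-138280187 on the minus strand, B4galt7 at chr13:55599646-55599945 on the plus strand, Ext2 at chr2:93822519-93822818 on the minus strand and Hspg2 at chr4:137468553-137468852 on the plus strand. Capitals mark the letters GGGCGG, a GC box bound by Sp factors, and ACGTG, the core of sites bound by hypoxia-inducible and E-box factors, on either strand.
Gpc2: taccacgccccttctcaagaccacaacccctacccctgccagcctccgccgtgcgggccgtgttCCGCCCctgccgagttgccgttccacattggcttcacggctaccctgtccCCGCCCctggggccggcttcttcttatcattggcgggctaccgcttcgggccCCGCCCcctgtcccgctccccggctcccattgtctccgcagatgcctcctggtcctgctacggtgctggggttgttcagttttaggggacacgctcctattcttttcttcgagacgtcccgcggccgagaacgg
B4galt7: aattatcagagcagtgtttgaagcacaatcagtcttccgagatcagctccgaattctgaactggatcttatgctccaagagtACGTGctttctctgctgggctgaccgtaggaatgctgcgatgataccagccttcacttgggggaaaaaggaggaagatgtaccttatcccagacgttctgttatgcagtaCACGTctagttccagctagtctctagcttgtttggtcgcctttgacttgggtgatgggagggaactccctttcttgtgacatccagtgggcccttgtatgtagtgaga
Ext2: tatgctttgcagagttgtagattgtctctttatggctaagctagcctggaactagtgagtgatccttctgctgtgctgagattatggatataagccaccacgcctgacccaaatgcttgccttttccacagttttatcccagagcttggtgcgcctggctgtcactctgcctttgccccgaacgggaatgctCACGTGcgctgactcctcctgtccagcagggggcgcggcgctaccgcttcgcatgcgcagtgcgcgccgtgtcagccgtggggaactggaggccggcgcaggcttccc
Hspg2: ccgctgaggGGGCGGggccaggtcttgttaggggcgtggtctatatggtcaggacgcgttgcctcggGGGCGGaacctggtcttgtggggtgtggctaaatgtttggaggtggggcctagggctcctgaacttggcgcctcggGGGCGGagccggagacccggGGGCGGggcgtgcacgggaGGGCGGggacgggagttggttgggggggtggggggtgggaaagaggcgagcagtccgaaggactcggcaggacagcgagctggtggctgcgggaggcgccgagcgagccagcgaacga
The promoters of Gpc2 and Hspg2 hold 3 and 5 matches to GGGCGG and 0 to ACGTG. Those of B4galt7 and Ext2 hold ACGTG and no GGGCGG. In B4galt7 there are 2 separate matches, and in Ext2 there is 1 palindromic CACGTG that is counted on each strand. Searches for CACCTG, the E-box bound by Snail factors, and TGTTTAC, a forkhead motif, found none in the 4 windows. The 4 windows do not stand for their steps of the pathway. The windows of the linker genes B3galt6, B3gat3 and Xylt2 hold no ACGTG, and that of Xylt2 holds GGGCGG.

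The table held 34 promoter windows for 29 of the 38 genes. Members that passed the filter had GC-rich start sites, with a median of 25 CpG dinucleotides over 26 windows of 22 genes. The median was 7 over all 32851 windows of the same length. Members below the filter had a median of 18 over 8 windows, and the lowest, with 1 and 3, belong to the alternative starts of Ndst3. GGGCGG occurred in 18 of the 26 windows (69.2%) and in 35.7% of all windows, and ACGTG in 4 of the 26 (15.4%) and in 19.6% of all. In the 8 windows of members below the filter, GGGCGG occurred in 4 (50%) and ACGTG in 3 (37.5%). CACCTG occurred in 2 of the 26 (7.69%) against 20.2% of all, and TGTTTAC in 0 of the 26 against 3.65% of all. The set of all windows was taken whatever the signal of their genes. A comparison with genes that passed the same filter was not made, so these differences cannot be called particular to the members. These are matches of letters, with no statement on binding.

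Genes around the pathway were read from related lists. Of all genes measured, 5.41% were higher with FGF10 by 1.5-fold or more and 4.86% were lower, and these lists are short. In the supply of sugar and sulfate precursors, 1 of 12 measured genes was higher by as much and 0 were lower, and the median was -0.13. That gene was Papss1, which makes the sulfate donor for all sulfotransferases, with 463.3 in control and 736.2 with FGF10 (0.63). Slc35b2, the transporter that brings this donor into the Golgi, was at -0.52 and -0.55 on its probe sets, within 1.5-fold. Bpnt1, also of this list, was at -0.22 on its brightest probe set but at 0.90 on its second. Both genes were picked out after their values were seen. Among 6 other measured genes of heparan sulfate biology, 1 was higher and 0 lower. It was Tgfbr3 (betaglycan), a co-receptor of the TGF-beta family that can carry heparan sulfate, with 376.3 and 1130.3 (1.55, 2.93-fold), and 0.98 on its dimmer probe set. That is a larger ratio than any of the 28 members had.

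The receptors that heparan sulfate serves were mixed. Of 8 measured FGF receptors and cofactors, 1 was at least 1.5-fold higher, 1 lower and 6 neither, with a median of -0.16. Of all genes, 5.41% were that much higher and 4.86% that much lower. Fgfr1 had 623.9 in control and 970.9 with FGF10 on its brightest probe set (0.60), but 0.086 and 0.25 on the others. Fgfr3 had 154.5 and 97.5 (-0.70). Fgfr2, whose epithelial splice form is the main FGF10 receptor, had 170.4 and 185.3 (0.087). Splice forms were not separated here.

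**Figure D4:**
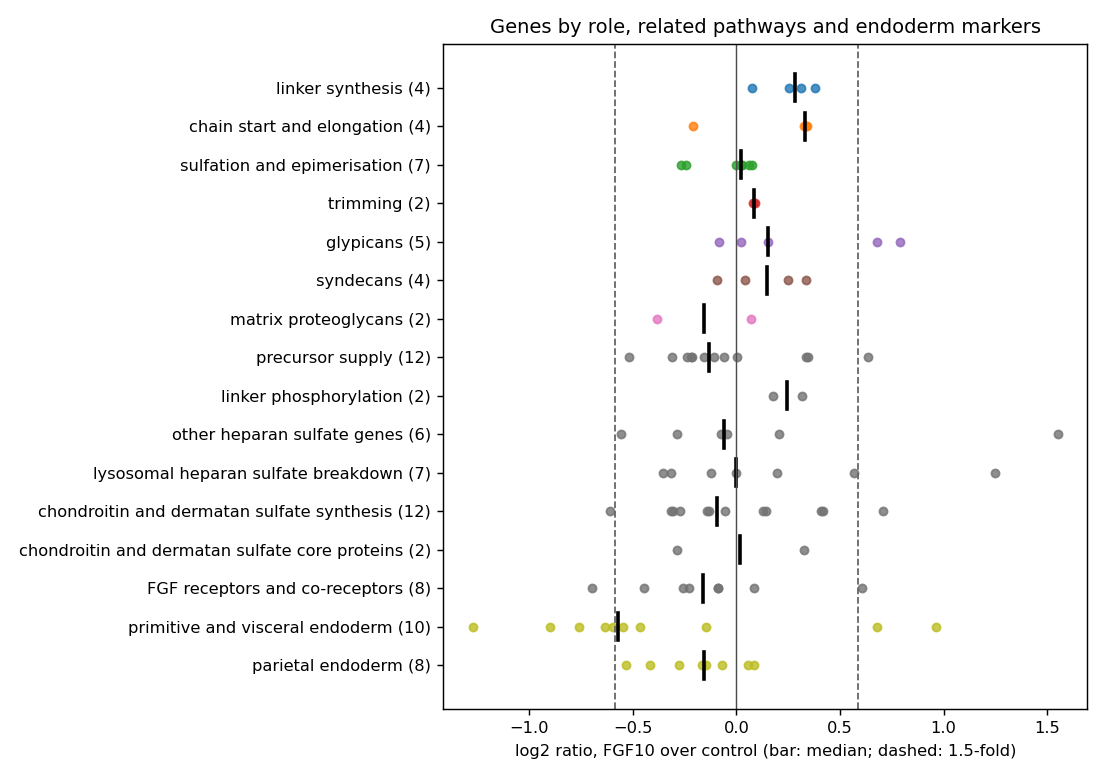
Log2 ratio of FGF10 over control for every measured gene of the member roles (coloured), of related lists (grey) and of endoderm markers (olive), with black bars at the medians, dashed lines at 1.5-fold and the number of genes in brackets. Linker and elongation genes have medians of 0.28 and 0.33, sulfation genes are at 0.024, and visceral endoderm markers are at -0.57.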

How the data were processed

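The deposited values are MAS5 signal intensities (linear scale), with MAS5 named in the submitters' processing notes without version or settings. The deposited intensity columns have trimmed means of 500 (without the lowest and highest 2%), the form that scaling each array to a common target leaves, so each ratio is read against the whole array. MAS5 makes dim values noisy. The genome build is not given in the sources used here. Detection calls were not used. 0 value columns were left unused.

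Samples were grouped by title. Of 45037 probe sets that are not chip controls, 34945 had 1 gene in the platform annotation, 932 several and 9160 none listed. From the intensities, log2 ratios were computed with no offset, minus 0.034, the median over the 22524 kept probe sets. The array number, 1 per group, limits the precision. Every member is named. Members and lists were chosen with earlier results of these data known. Alternatives covered centring, normalization, offset, filter, floor, probe set choice and threshold. The procedure was tested on simulated data, with Python 3.11.15, pandas 2.3.3 and statsmodels 0.14.6.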

Additional observations from a re-analysis of the deposited data

Results flagged for a closer look

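Probe sets of members that were left out of the gene values because their mean signal was under 76.35, but that reached it on the FGF10 array and were at least 1.5-fold higher there, are given here. For Hs3st3b1, a 3-O-sulfotransferase, 1 such probe set had 3.8 in control and 143.2 with FGF10, while the gene's other probe sets had 76.7 and 63.6, 27.3 and 55.4, and 2.1 and 25.1. For Gpc6, 1 had 32.2 and 89.4. For B4galt7, 1 had 42.6 and 81.1. The rule admits only probe sets that were higher with FGF10, so their direction adds nothing to that of the kept probe sets. All 3 control signals are under 76.35. With signals under 76.35 raised to that value, the log2 ratios were 0.87 for Hs3st3b1, 0.19 for Gpc6 and 0.053 for B4galt7.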

How the results depend on the processing

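The median log2 ratio of the members kept its sign in all 13 settings tried, between 0.069 and 0.12. The medians of core proteins and of enzymes also kept theirs. For core proteins the values ran from 0.016, with the mean over kept probe sets and so close to 0, to 0.16 for the mean over core proteins. For enzymes they ran from 0.069 with an offset to 0.19 with second brightest probe sets. The count of members 1.5-fold higher, 2 as reported, was 1 with an offset, with the filter on both arrays and with signals raised to the filter (Gpc6 in each), 1 with the mean over probe sets and 1 with second brightest probe sets (Gpc2 in both). It was 0 at the stricter filter, which neither gene passed, and 4 without a filter, where the dim Gpc5 and Hs3st3b1 joined. Without a filter 2 members, Ndst4 and Hs3st3a1, were lower. At a threshold of 2-fold 0 were higher, and at the smallest threshold tried, a log2 ratio of 0.32, 7 were higher (25%) and 1 (Hspg2) was lower (3.57%), against 14.7% and 16.6% of all genes. Of 293 values of single members under alternatives, 285 moved by no more than the technical SD and 8 by more, each through another choice of probe set. For the 14 members with 1 kept probe set that choice could not change the value, so the 285 overstate how stable single members are. No paired analysis was possible because each group had 1 array. Leaving out an array was likewise not possible.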

Other observations

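Chondroitin and dermatan sulfate chains start on the same linker as heparan sulfate. Of 12 measured genes that make them, 1 was higher with FGF10 by at least 1.5-fold and 1 was lower, and the median log2 ratio was -0.094. The shares over all genes were 5.41% higher and 4.86% lower. Chsy1, a chondroitin synthase, had 1492 in control and 2492.2 with FGF10 (0.71, 1.63-fold), on its 1 probe set. Ust, which sulfates uronic acids of these chains, had 207.9 and 139.6 (-0.61). Of 9 core proteins listed, 7 lay below the filter, and Vcan, the large matrix proteoglycan versican, had 909.5 and 763.7 (-0.29) on its brightest probe set and 0.074 and -0.72 on its other kept ones. The other measured core protein, Ncan (neurocan), had 201.2 and 258.2 (0.33) on its brightest probe set and -0.13 on its second. Probe sets of both genes thus lay on both sides of 0.

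Of 7 measured genes of lysosomal heparan sulfate breakdown, 1 was at least 1.5-fold higher and none was lower, and the median was -0.0015. The shares over all genes were 5.41% higher and 4.86% lower. Naglu, which removes N-acetylglucosamine from the chain end, had 71.2 in control and 173.2 with FGF10 (2.38-fold) on its 1 probe set. It passed the filter only through the array where it was higher. With the control signal raised to 76.35 its log2 ratio was 1.15.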
